A study of Patiria miniata with 16 samples.

Results

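Bat sea star (Patiria miniata) embryos were kept in beta-aminopropionitrile (BAPN) from mid gastrula until day 4, and their gene expression was compared with that of untreated embryos of the same day. The comparison holds 4 of the 16 libraries of the series, 2 from treated embryos and 2 from controls, and covers every gene with enough reads to be tested, which left 17519 of 27818 genes. Of the treated libraries, 1 came from embryos in 1.2 mM BAPN and the other from embryos in 0.8 mM, so the spread between them contains any effect of dose. All embryos were wild type, and each library was made from polyA RNA of a pool of whole embryos.

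The study asked, by its title, how a collagenous matrix bears on germline genes. Its other libraries hold BAPN from hatched blastula to day 2 or day 4, BAPN from mid gastrula to day 3, a recovery after removal at day 2, and controls of day 2 and day 3, with 2 libraries in each group. The labels tie the day 4 controls to the embryos treated from hatched blastula (replicate 1 to 0.8 mM, replicate 2 to 1.2 mM) and name no control for those treated from mid gastrula. Whether the libraries of a group are separate cultures is not stated, and p-values reflect no more than the spread seen between them, which may be technical.

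BAPN blocks lysyl oxidases, secreted enzymes that oxidise lysines of collagen and elastic fibre proteins so that the chains cross-link. Cross-linked collagen gives the matrix between epithelium and mesenchyme its stiffness. After gastrulation a sea star embryo splits its gut into foregut, midgut and hindgut, pouches off the coelom, differentiates muscle and neurons, and becomes a swimming, feeding larva. Its germ cells are set aside in the posterior enterocoel, where nanos and vasa (DDX4) stay active while nodal signalling represses them elsewhere.

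Total counts were 11755813 and 12490335 in the treated libraries (1.2 mM and 0.8 mM) and 11768941 and 11739650 in the controls, within the series' range of 9945801 to 14383817. A count above 0 was seen for 16792 and 17679 genes in the treated libraries and for 20019 and 19289 in the controls. Ribosomal RNA genes took 0.836% and 1.01% of treated counts against 0.707% and 3.22% of control counts, so control replicate 2 stood apart. Genes of larval tissues were detected in the controls, among them muscle actin, digestive enzymes and dyneins of cilia with levels given below. On a principal component analysis of the 16 libraries the treated pair lay at -104 and -88 on the first component, with 49% of the variance, and the controls at 113 and 117.

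Expression differed over much of the genome. With edgeR, 8076 of the 17519 genes (46.1%) passed an adjusted p of 0.05, 3841 of them higher (21.9%) and 4235 lower (24.2%) in treated embryos. A test against a change of 2-fold kept 3421 genes (19.5%), 1538 higher (8.78%) and 1883 lower (10.7%). The median log2 change of all tested genes was -0.08. Both treated libraries lay above both controls for 3834 of the genes called higher, and below both for all 4235 called lower, while 75.3% of all tested genes had groups that did not overlap. Of protein-coding genes 47.8% were called, against 23.1% of 910 long noncoding RNAs. In the treated libraries 437 genes called lower had no count at all, and 95 genes called higher had none in the controls.

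**Figure D1:**
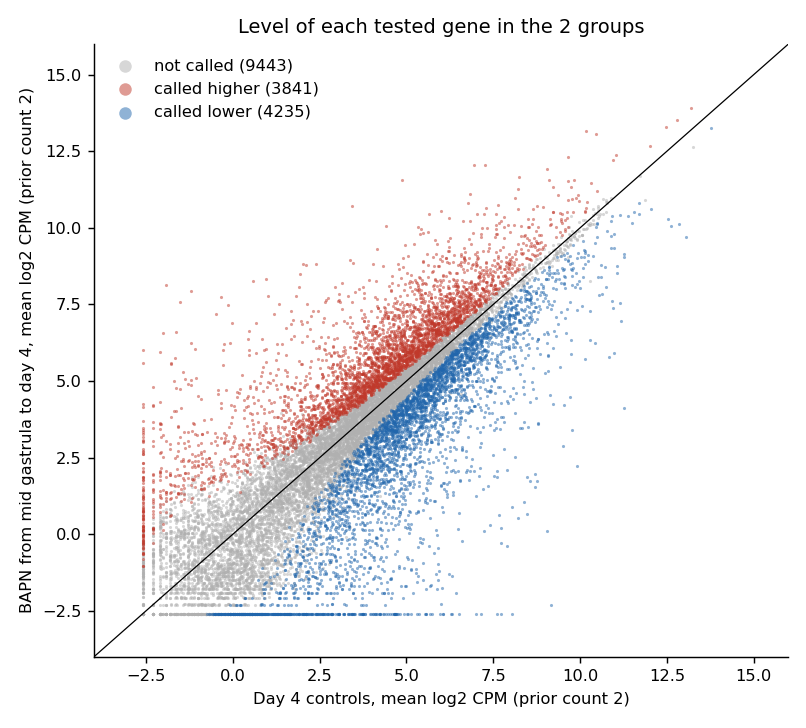
Mean log2 CPM (counts scaled to a common library size, prior count 2) of each of the 17519 tested genes in the 2 day 4 controls (x axis) and in the 2 libraries treated from mid gastrula (y axis); red and blue points are the 3841 genes called higher and the 4235 called lower, and the line marks equal levels. The horizontal row of blue points at the bottom contains genes without a count in both treated libraries.

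The libraries at 1.2 mM and 0.8 mM resembled each other. Over all tested genes the median absolute log2 difference was 0.30 between the treated libraries and 0.21 between the controls, against a median absolute change of 0.90 between treated and control. Among 8069 called genes with both treated libraries on one side of both controls, 4675 (57.9%) lay farther from the control mean at 1.2 mM, and the median distance was 1.49 at 1.2 mM and 1.39 at 0.8 mM. With 1 library per dose, a dose effect and the difference between 2 cultures cannot be told apart. A few of the called genes differed by more than 2-fold within a pair, 726 between the treated libraries and 249 between the controls.

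Among 28 tested germline and RNA regulators, the genes of the study's title, 9 rose, 3 fell and 16 did not pass the test, with a median log2 change of 0.22 against -0.08 for all genes. That was 32.1% higher and 10.7% lower, beside 21.9% and 24.2% of all genes. Without the 1.2 mM library 1 gene fell, and the median was 0.10 without the 0.8 mM library and 0.53 without control replicate 1. Both genes named DDX4 (vasa), an RNA helicase of germ cells in animals, were higher. LOC119728304 had 73.6 and 75.3 CPM in the treated libraries against 26.4 and 30.7 in the controls. It rose by 1.38 ± 0.16 on the log2 scale (approximate SE from the model of all 16 libraries, n = 2 libraries per group, adjusted p = 3e-07). LOC119742591 had 60.2 and 50.5 CPM against 22.7 and 26.8, and rose by 1.16 ± 0.19 (adjusted p = 2.1e-05). In both genes the 2 groups did not overlap, a trait shared by 75.3% of all tested genes.

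Nanos, a translational repressor of germ cells, was expressed at a low level. LOC119721081 had 6.08 and 6.91 CPM in treated libraries against 3.11 and 3.69 in controls, a log2 difference of 0.93 ± 0.39 that missed the threshold (adjusted p = 0.058). Another nanos gene, LOC119721088, had 0.544 and 0 CPM in treated libraries and no count in the controls, and missed the threshold as well (adjusted p = 0.13). Bicaudal C, an RNA-binding translational regulator, rose from 134 and 126 CPM to 545 and 472 (LOC119729938, 1.97 ± 0.15, adjusted p = 3.1e-10). PRDM1 (Blimp1), a transcriptional repressor that specifies germ cells in the mouse, rose from 57.1 and 46.0 CPM to 146 and 144 (LOC119745514, 1.49 ± 0.16). A cytoplasmic polyadenylation element-binding protein, which controls stored messenger RNA, fell from 143 and 131 CPM to 31.8 and 47.7 (LOC119739653, -1.78 ± 0.18). Piwi-like protein 1 (LOC119719483) was uneven, at 0.817 and 5.91 CPM against 12.8 and 9.60, and its call (-1.72 ± 0.56, adjusted p = 0.015) was lost without the 1.2 mM library (-0.92, adjusted p = 0.16) and without control replicate 1 (-1.48, adjusted p = 0.096).

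Among the targets of BAPN and other enzymes that modify collagen, 3 of 14 tested genes rose (21.4%) and 2 fell (14.3%), shares no higher than those of all genes. The count of falls was 1 without the 1.2 mM library or control replicate 1 and 4 with DESeq2, and the median of 0.30 ran from -0.03 without the 1.2 mM library to 0.19 without control replicate 1 when 1 library was left out. LOC119735518, named lysyl oxidase homolog 2A-like, had 0.363 and 2.67 CPM in the treated libraries against 11.6 and 15.6 in the controls, a fall of 3.14 ± 0.56 on the log2 scale (adjusted p = 7.9e-05). The other lysyl oxidase gene tested, LOC119738367, was barely detected, at 0.181 and 1.42 CPM against 0.328 and 0.857, and missed the threshold (0.45 ± 1.08, adjusted p = 0.77). BMP1 and tolloid are proteinases that cut procollagen ends and also release BMP ligands from their inhibitors. A tolloid-like gene (LOC119740417) rose from 0.164 and 0.343 CPM to 9.53 and 10.5, and the BMP1-like gene LOC119719287 from 1.15 and 1.20 to 8.35 and 6.91. The most abundant of them, the BMP1 homolog LOC119731558, had 170 and 207 CPM against 134 and 142, and its small rise (0.45 ± 0.13, adjusted p = 0.0071) was lost without the 0.8 mM library (0.32) and without control replicate 1 (0.43).

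Of 107 genes annotated as collagens, 29 had enough reads to be tested. Of these 5 fell (17.2%), 2 rose (6.9%) and 22 did not pass (median -0.29). Both shares were below those of all genes, 24.2% lower and 21.9% higher. The count of rises was 0 without control replicate 1, and 1 without control replicate 2 or the 1.2 mM library, with DESeq2 or its size factors, with total counts or with the contrast's libraries alone. The median was -0.60 without control replicate 1, -0.18 without control replicate 2 and -0.75 without the 0.8 mM library. The falls were led by the pair of collagen IV chains, which build the network of basement membranes. Collagen alpha-2(IV) (LOC119724226) had 169 and 192 CPM in the treated libraries against 538 and 635 in the controls, and fell by 1.70 ± 0.14 (adjusted p = 2.7e-09). Collagen alpha-5(IV) (LOC119724229) had 276 and 280 CPM against 809 and 941, and fell by 1.65 ± 0.14 (adjusted p = 1.8e-09). In the Pmin_3.0 assembly the genes are neighbours on opposite strands of one scaffold, at 3106588 to 3151680 and at 3158674 to 3201586. Collagen alpha-1(XXVI) (LOC119730227) fell from 80.1 and 84.8 CPM to 39.9 and 29.8 (-1.24 ± 0.17). The collagen IV pair held most of the summed level of the list, which was 858 and 925 CPM in treated libraries against 1933 and 2220 in controls. That sum therefore mainly follows the pair and does not describe the other collagens.

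Other matrix proteins moved in both directions, with 26 of 86 tested genes higher (30.2%) and 25 lower (29.1%), beside 21.9% and 24.2% of all genes. The median was -0.07. Laminins and SPARC, partners of collagen IV in the basement membrane, were divided (members chosen here after their values were seen). Laminin beta-1 (LOC119721873) fell from 1097 and 1059 CPM to 310 and 360 (-1.69 ± 0.14), laminin gamma-1 (LOC119720710) from 742 and 735 to 279 and 313 (-1.32 ± 0.13), and SPARC (LOC119731302), a collagen-binding glycoprotein, from 107 and 117 to 19.7 and 15.7 (-2.66 ± 0.21). A laminin alpha-like gene (LOC119741145) rose from 78.6 and 73.6 CPM to 195 and 217 (1.44 ± 0.15).

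Fibrillins, the rod proteins of microfibrils, held both the largest rises and the largest fall of the matrix list. LOC119744245, fibrillin-2-like, had 13.2 and 22.8 CPM against 2397 and 2560, a fall of 7.10 ± 0.41 on the log2 scale (adjusted p = 6.2e-08). Fibrillin-1-like genes rose, LOC119736511 from 47.4 and 48.5 CPM to 596 and 532 (3.55 ± 0.17) and LOC119741880 from 6.96 and 2.83 to 98.2 and 111 (4.41 ± 0.45). Another fibrillin-2-like gene, LOC119734740, rose as well, from 14.17 and 12.95 CPM to 150.8 and 139.1 (3.42 ± 0.22, adjusted p = 4.1e-11), so genes of that name moved apart. Fibropellins, proteins of the apical matrix in sea urchin embryos, included falls such as LOC119742514, from 78.3 and 64.6 CPM to 2.36 and 2.33 (-4.92 ± 0.45). Collagens, fibrillins, fibropellins and other families named here hold several genes of like product name. Their sequences were not compared, and whether the authors' counting divided reads among similar copies was not tested.

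Of receptors and adhesion proteins, 15 of 36 tested genes rose (41.7%) and 9 fell (25.0%), beside 21.9% and 24.2% of all genes. The median was 0.45. Discoidin domain receptor 2, a receptor tyrosine kinase that binds fibrillar collagen, rose from 101 and 89.5 CPM to 430 and 435 (LOC119734382, 2.19 ± 0.14, adjusted p = 2.2e-11). Integrin alpha-9, a subunit of matrix receptors, rose from 146 and 132 CPM to 463 and 383 (LOC119719318, 1.60 ± 0.15). Vinculin, which couples adhesions to actin, fell from 195 and 218 CPM to 57.6 and 59.5 (LOC119725907, -1.82 ± 0.13).

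Proteases that cut matrix showed 13 of 37 tested genes higher and 8 lower (median 0.52), the latter 5 without control replicate 1. As shares, 35.1% of the list was higher and 21.6% lower, beside 21.9% and 24.2% of all genes. Matrix metalloproteinase-18-like LOC119735925 had 565 and 468 CPM in treated libraries against 24.4 and 36.1, a rise of 4.09 ± 0.22 (adjusted p = 2.7e-11). LOC119727619 of the same name rose from 2.05 and 4.37 CPM to 87.4 and 76.5 (4.68 ± 0.29). The 2 genes named 72 kDa type IV collagenase, an enzyme that cuts collagen IV in vertebrates, moved apart. LOC119730794 rose from 11.5 and 9.86 CPM to 123 and 114 (3.47 ± 0.21), and LOC119720279 fell from 78.6 and 90.3 CPM to 3.36 and 4.58 (-4.40 ± 0.21).

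In nodal and BMP signalling, 14 of 31 tested genes rose (45.2%) and 7 fell (22.6%), beside 21.9% and 24.2% of all genes (median 0.26). Without the 0.8 mM library 4 fell and the median was 0.40, and without the 1.2 mM library the median was 0.17. Among the ligands, nodal (LOC119731756), which patterns the left and right side and is the repressor of germline genes noted above, had 67.1 and 62.9 CPM against 29.6 and 21.9 in controls, a rise of 1.33 ± 0.21 (adjusted p = 2.9e-05). Univin (LOC119741587), a ligand that acts with nodal in sea urchins, rose from 9.34 and 10.6 CPM to 22.2 and 18.3 (1.03 ± 0.22), and lefty (LOC119746331), a secreted nodal inhibitor, from 3.60 and 2.83 to 7.08 and 11.5 (1.53 ± 0.32). In each of these 3 genes both treated libraries were above both controls, as in 6128 of all 17519 tested genes. These 3, BMP2-A and kielin/chordin were named after their values were seen.

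BMP ligands went in both directions. BMP2-A (LOC119741091) rose from 67.1 and 62.9 CPM to 192 and 154 (1.41 ± 0.14), and BMP8A (LOC119722468) from 0.328 and 0.943 to 30.0 and 22.1 (5.35 ± 0.63). BMP4 (LOC119732060) fell from 67.0 and 73.8 CPM to 9.89 and 22.8 (-2.10 ± 0.29), and growth/differentiation factor 8 (LOC119719081) from 33.3 and 44.0 to 0.181 and 0.333 (-7.16 ± 1.0). The transducer SMAD5-like (LOC119727472), which carries BMP signals to the nucleus, rose from 80.9 and 81.4 CPM to 507 and 437 (2.54 ± 0.13, adjusted p = 7.8e-13). Kielin/chordin-like protein (LOC119721939), a secreted BMP modulator, fell from 138 and 136 CPM to 47.5 and 51.1 (-1.47 ± 0.15).

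Wnt signalling had 12 of 30 tested genes higher and 8 lower (median 0.41). The share lower, 26.7%, was near the 24.2% of all genes, while the share higher was above the 21.9% of all genes. Of the ligands, Wnt-8b rose from 66.6 and 76.3 CPM to 577 and 389 (LOC119730682, 2.76 ± 0.23) and Wnt-16 from 23.1 and 27.2 to 146 and 140 (LOC119726703, 2.51 ± 0.17), while Wnt-7c fell from 17.2 and 20.1 CPM to 1.45 and 0.666 (LOC119744251, -4.14 ± 0.51). Beta-catenin (LOC119741863, named after its values were seen), the transducer of canonical Wnt signals and a linker of cadherins, rose from 802 and 807 CPM to 1932 and 1912 (1.26 ± 0.11). Secreted frizzled-related protein 3, a Wnt inhibitor, fell from 16.1 and 17.2 CPM to 1.27 and 0.0833 (LOC119725500, -4.65 ± 0.46). Of 17 FGF and VEGF genes tested, 6 rose (35.3%) and 4 fell (23.5%), the latter near the 24.2% of all genes (median 0.10). The count of falls was 2 without either treated library or control replicate 2, and the median was 0.24 without control replicate 2 and 0.17 without the 1.2 mM library. FGF receptor 4 rose from 13.02 and 9.002 CPM to 116 and 85.5 (LOC119720196, 3.19 ± 0.29), and VEGF receptor 1, found on mesenchyme in sea urchins, from 37.9 and 34.3 to 174 and 138 (LOC119719573, 2.11 ± 0.15).

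Genes of differentiated larval tissues were lower in larger shares than all genes. In whole embryos, fewer cells of a type and less RNA per cell cannot be told apart. With edgeR 19 of 35 muscle genes fell and 0 rose, a count of rises that was also 0 at an unadjusted p under 0.05 and with DESeq2. The median was -1.56, and 54.3% of the list fell against 24.2% of all genes. Muscle actin (LOC119720708), the thin filament protein, had 0.544 and 1.499 CPM in treated libraries against 441 and 626 in controls (-8.99 ± 0.38, adjusted p = 3.5e-11). Striated muscle myosin heavy chain (LOC119735028), the motor of the thick filament, had 5.17 and 4.00 CPM against 857 and 1066 (-7.71 ± 0.32, adjusted p = 2.9e-11). Troponin T (LOC119721862), which anchors the calcium switch to the thin filament, had 0 counts in both treated libraries against 45.4 and 57.4 CPM, at least 394-fold lower by a floor of 3 counts over the group. The summed level of the list was 1990 and 2044 CPM in treated libraries against 5424 and 5833 in controls.

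Neuron genes followed, with 18 of 43 lower (41.9%) and 2 higher (4.65%), beside 24.2% and 21.9% of all genes. The median was -1.36. POU4F2, a homeodomain factor of sensory neurons, had 0.454 and 0 CPM against 49.6 and 55.5 (LOC119727541, -7.85 ± 0.62, adjusted p = 2.5e-08). Neuroligin-3 (LOC119723541), an adhesion protein of the postsynaptic side, had 0 counts in both treated libraries against 27.1 and 29.1 CPM, at least 216-fold lower. The pair of genes that make and load acetylcholine fell together, choline acetyltransferase (LOC119731317, named after its values were seen) from 30.6 and 35.8 CPM to 0.817 and 1.42 (-4.88 ± 0.73) and the vesicular acetylcholine transporter (LOC119731319) from 30.5 and 34.4 to 0.544 and 0.333 (-6.18 ± 0.89). Tryptophan hydroxylase, the first enzyme of serotonin synthesis, rose from 12.4 and 8.06 CPM to 41.5 and 35.9 (LOC119740445, 1.92 ± 0.24). Synaptotagmin-5 (LOC119735933), a calcium sensor of vesicles, was the other gene called higher (0.68 ± 0.24, adjusted p = 0.025), a call that was lost without the 0.8 mM library (adjusted p = 0.15) or either control (adjusted p = 0.083 and 0.12).

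Gut genes moved in both directions, mostly down. Of 65 tested, 34 fell (52.3%) and 12 rose (18.5%), beside 24.2% and 21.9% of all genes. The median was -1.95. Digestive enzymes and lipid carriers were among the falls, led by fatty acid-binding protein 2 (LOC119732604) with 0 counts in both treated libraries against 110 and 149 CPM, at least 989.8-fold lower. Carboxypeptidase B (LOC119730943), a protein-digesting enzyme, likewise went from 21.6 and 31.1 CPM to 0 counts, at least 202-fold lower. Trypsin (LOC119724778) had 3 counts over the treated libraries against 75.7 and 98.5 CPM, a ratio of 667 with a 95% counting interval of 228 to 3235.

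The rises of the gut list were led by genes named after LVN1.2, an endoderm protein of sea urchins. LOC119730869 had 285 and 272 CPM in treated libraries against 0.246 and 0 in controls, where 3 counts in all gave a ratio of 2217 with a counting interval of 758 to 10750. LOC119730870 rose from 0.491 and 0.600 CPM to 159 and 131 (8.03 ± 0.33), and LOC119738332, chosen after its values were seen, from 282 and 317 to 2740 and 2217 (3.05 ± 0.23). Another copy, LOC119737744, fell from 51.3 and 70.8 CPM to 0 and 1.42 (-6.36 ± 0.50), so genes of that name did not move as a block. Intervals and floors cover counting error only.

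Of 97 tested mesenchyme and immune genes 15 were higher (15.5%) and 25 lower (25.8%), the latter near the 24.2% of all genes. Their median was -0.67, and -0.24 without control replicate 1. Macrophage-expressed gene 1, a pore-forming protein of phagocytes in vertebrates, rose from 22.9 and 19.6 CPM to 1245 and 909 (LOC119725736, 5.66 ± 0.25, adjusted p = 1e-11). GATA-binding factor 2, a blood cell factor in vertebrates, rose from 1.48 and 1.46 CPM to 14.5 and 16.5 (LOC119726590, 3.39 ± 0.32). A macrophage mannose receptor 1-like lectin fell from 346 and 409 CPM to 4.54 and 2.17 (LOC119745884, -6.83 ± 0.43).

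Of 92 tested genes of motile cilia, which drive the swimming bands, 72 fell (78.3%) and 5 rose (5.4%), beside 24.2% and 21.9% of all genes. The median was -0.98. The count of rises was 3 with total counts and without the 0.8 mM library or control replicate 2, and 2 without control replicate 1. Tektin-1, a filament of ciliary microtubules, fell from 105 and 95.9 CPM to 19.4 and 21.7 (LOC119730746, -2.28 ± 0.21), and radial spoke head protein 9 from 101 and 110 to 19.2 and 25.6 (LOC119742585, -2.23 ± 0.19). By the median their falls were smaller than those of muscle (-0.98 against -1.56). In the lower direction 24 of the 92 passed the test against 2-fold, beside 15 of 35 muscle genes and 10.7% of all genes. Against the list, cilia- and flagella-associated protein 251 rose from 45.1 and 43.5 CPM to 439 and 341 (LOC119721168, 3.14 ± 0.15), and an axonemal dynein assembly factor 4-like gene from 4.01 and 8.66 to 127 and 117 (LOC119744836, 4.27 ± 0.27).

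**Figure D2:**
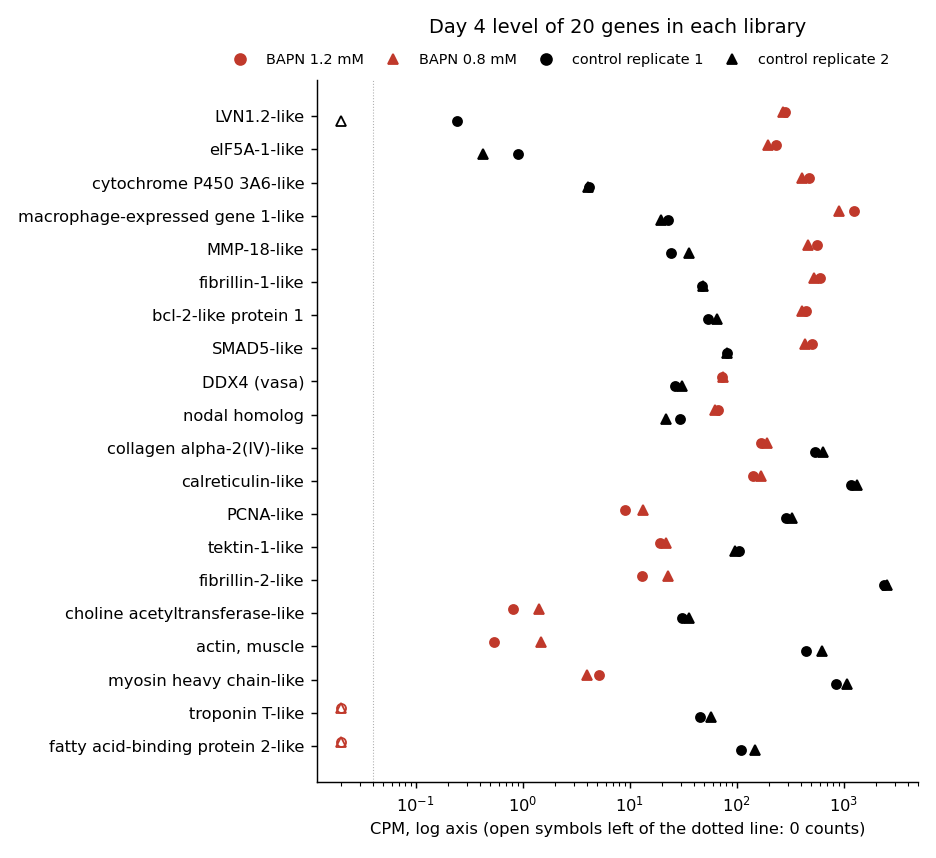
CPM on a log axis of 20 genes in each of the 4 libraries (red, BAPN from mid gastrula; black, day 4 controls; circles, 1.2 mM or control replicate 1; triangles, 0.8 mM or control replicate 2; open symbols, 0 counts). In each gene the red pair lies on one side of the black pair, from LVN1.2-like at 285 and 272 CPM against 0.246 and 0 at the top to fatty acid-binding protein 2 at 0 against 110 and 149 at the bottom. Groups of 75.3% of all tested genes did not overlap.

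Genes of DNA replication and mitosis were lower, 41 of 56 tested (73.2%), with 2 higher (3.57%), beside 24.2% and 21.9% of all genes. The median was -1.37. Proliferating cell nuclear antigen, the clamp of DNA polymerase, fell from 288 and 329 CPM to 9.07 and 13.2 (LOC119732257, -4.78 ± 0.24, adjusted p = 2.6e-11). Thymidylate synthase, which makes a DNA building block, fell from 112 and 112 CPM to 2.54 and 4.16 (LOC119724700, -5.04 ± 0.24), and the large subunit of ribonucleotide reductase from 433 and 447 to 10.3 and 13.5 (LOC119727507, -5.20 ± 0.41). A replication clamp loader subunit went the other way, from 27.9 and 26.2 CPM to 54.6 and 43.6 (replication factor C subunit 5, LOC119730215, 0.86 ± 0.17).

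Chaperones of the endoplasmic reticulum, where collagen and other secreted proteins fold, were lower in 17 of 20 tested genes (85.0%, beside 24.2% of all genes, median -1.24). With edgeR, at an unadjusted p under 0.05 and with DESeq2, 0 of them were higher. Calreticulin (LOC119722348), a calcium-binding chaperone of glycoproteins, fell from 1159 and 1339 CPM to 141 and 170 (-3.01 ± 0.16, adjusted p = 1.9e-12), and endoplasmin (LOC119726490) from 518 and 683 to 55.98 and 82.8 (-3.11 ± 0.24). BiP (LOC119720212, chosen after its values were seen), the main HSP70 of that compartment, fell from 864 and 1224 CPM to 270 and 255 (-1.99 ± 0.18). Other heat shock proteins had 7 of 13 lower, or 4 without the 1.2 mM library, and 3 higher (median -0.83), with HSP83, the cytosolic HSP90, at 680 and 627 CPM against 1820.0 and 2249 (LOC119742558, -1.64 ± 0.23). As shares, 53.85% of the heat shock list was lower and 23.1% higher, the latter near the 21.9% of all genes. Mitochondrial HSP75 rose from 67.6 and 65.1 CPM to 144 and 142 (LOC119727480, 1.11 ± 0.13).

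Of 73 cytosolic ribosomal proteins 2 were higher (2.74%) and 3 lower (4.11%), beside 21.9% and 24.2% of all genes, with a median of -0.11. The count of lower members depended on the scaling, at 9 with the size factors of DESeq2 and 14 with total counts. Their summed level was 72030 and 64400 CPM in treated libraries against 65220 and 75040 in controls, so the groups overlapped. Genes of the mitochondrial ribosome and respiratory chain had 37 of 153 higher and 54 lower (median -0.05), and the count of higher members was 16 and 20 without control replicate 1 or 2 and 21 without the 1.2 mM library. As shares, 24.2% of that list was higher, near the 21.9% of all genes, and 35.3% was lower, beside 24.2%. Cytochrome c oxidase subunit 5A was among the falls, from 28.9 and 28.5 CPM to 7.53 and 8.33 (LOC119737578, -1.85 ± 0.26).

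Cytochrome P450 genes, which oxidise foreign and steroid compounds, had 22 of 111 higher (19.8%) and 38 lower (34.2%), with a median of -0.69, beside 21.9% and 24.2% of all genes. The rises were led by P450 3A genes on one scaffold, 3A6-like (LOC119737034) at 474 and 404 CPM against 4.18 and 4.12 (6.72 ± 0.20, adjusted p = 1.6e-15) and 3A19-like (LOC119737039) at 121 and 117 against 0.983 and 0.686 (7.13 ± 0.53). P450 2J6-like LOC119729963 had 0 counts in treated libraries against 41.4 and 53.5 CPM, at least 363-fold lower. Transferases that conjugate foreign compounds were lower in 37 of 77 (48.05%) and higher in 2 (2.6%), with a median of -1.38. Glutathione S-transferase theta-1 fell from 322 and 412 CPM to 10.7 and 11.5 (LOC119732217, -5.04 ± 0.18).

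ABC transporters, pumps of drugs, lipids and ions, were higher in 28 of 62 tested genes (45.2%) and lower in 11 (17.7%), with a median of 0.34. The shares of all genes were 21.9% and 24.2%. The summed level of the list was 21330 and 19910 CPM against 5629 and 5513. ABCC9-like LOC119744800 rose from 5.33 and 2.40 CPM to 280 and 256 (6.10 ± 0.34), while multidrug resistance-associated protein 7-like LOC119741063 fell from 683 and 811 to 22.5 and 14.99 (-5.32 ± 0.32). The count of lower members was 6 or 7 when either control or the 1.2 mM library was left out, and the median was 0.57 without the 1.2 mM library.

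Apoptosis genes had 9 of 23 higher (39.1%) and 4 lower (17.4%), beside 21.9% and 24.2% of all genes (median 0.55), in both arms of the pathway. Bcl-2-like protein 1, an inhibitor of cell death in vertebrates, rose from 54.4 and 65.0 CPM to 446 and 411 (LOC119742144, 2.84 ± 0.15), and caspase-7, an executioner protease, from 15.9 and 11.1 to 107 and 78.6 (LOC119735747, 2.78 ± 0.22). Caspase-3 fell from 20.5 and 18.2 CPM to 3.99 and 8.99 (LOC119720432, -1.57 ± 0.32).

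Homeobox and coelom regulators had 43 of 106 tested genes lower (40.6%, beside 24.2% of all genes) and a median of -0.56. The 24 higher (22.6%) were near the 21.9% of all genes. Prophet of Pit-1-like rose from 0.573 and 0.857 CPM to 26.4 and 25.2 (LOC119738526, 5.16 ± 0.39), and vent1-like, whose frog homolog acts in ventral mesoderm, from 12.04 and 10.2 to 89.9 and 81.5 (LOC119739858, 2.94 ± 0.19). FoxF1 (LOC119737216), a regulator of visceral mesoderm in vertebrates, rose from 3.69 and 3.60 CPM to 26.3 and 25.6 (2.83 ± 0.25), and FoxA2 (LOC119740965), an endoderm factor, from 352.5 and 341 to 715 and 685 (1.01 ± 0.12); both were chosen after their values were seen.

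**Figure D3:**
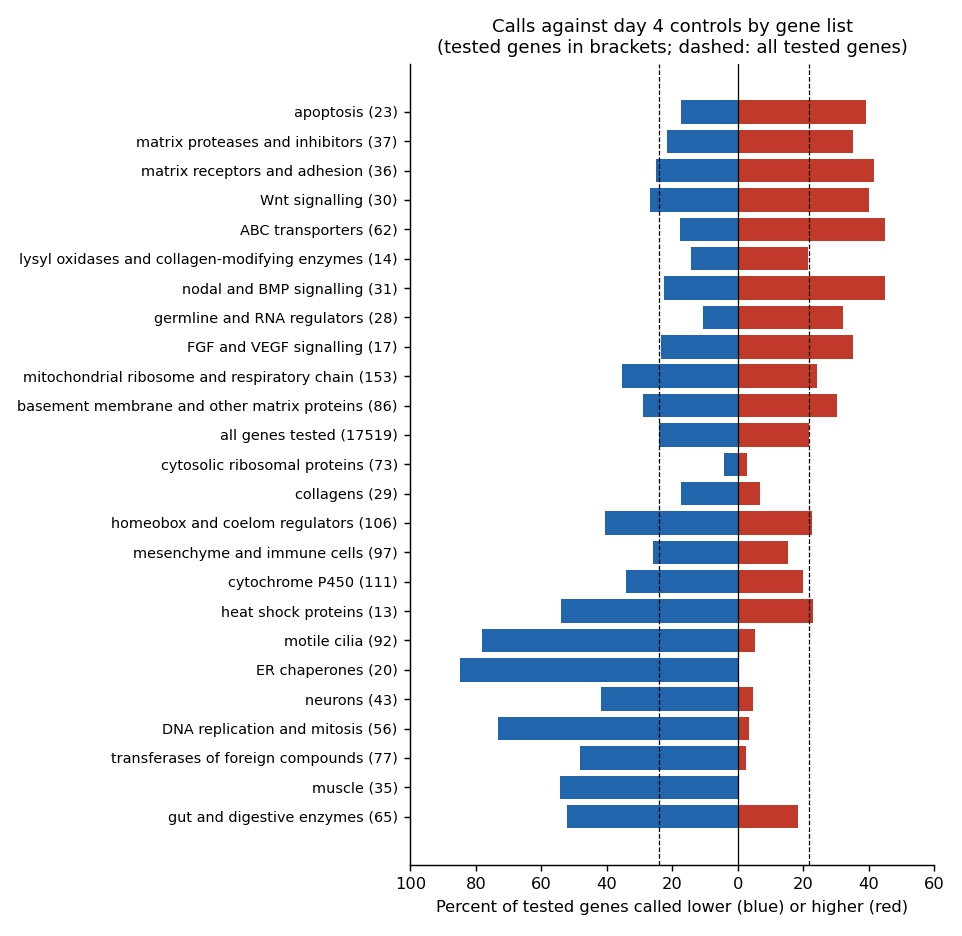
Percent of the tested genes of each of 24 lists called lower (blue, to the left) and higher (red, to the right) against day 4 controls, ordered by the median log2 change, with the number tested in brackets; dashed lines mark all tested genes, 24.2% lower and 21.9% higher. Muscle, transferases, DNA replication, neurons, ER chaperones and cilia hold long blue bars and few or no rises, while the list of ABC transporters holds 28 rises of 62 genes.

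Further genes with product names were chosen as being among the 10 largest rises or falls, so their size follows from the choice. The same rankings held list members such as LVN1.2-like, fatty acid-binding protein 2 and troponin T. Eukaryotic translation initiation factor 5A-1-like (LOC119746463) rose from 0.901 and 0.429 CPM to 233 and 196 (8.30 ± 0.39), histamine N-methyltransferase-like (LOC119730557) from 0.573 and 0.943 to 190 and 171 (7.88 ± 0.30), and quinone oxidoreductase-like (LOC119723346), a redox enzyme, from 1.48 and 1.20 to 384 and 246 (7.87 ± 0.26). A polyketide synthase-like gene (LOC119738044) had 412 and 250 CPM against 3.28 and 0.943 (7.27 ± 0.44). All 10 of the largest falls were to 0 counts in both treated libraries. The first was a sodium-dependent phosphate transporter 2-like gene (LOC119724507) at 238 and 290 CPM in controls, at least 2023-fold lower. Aqualysin-1-like (LOC119740142), a serine protease, followed at 186 and 241 CPM (at least 1636-fold), then lactase-phlorizin hydrolase-like (LOC119742045), a sugar-digesting enzyme, at 186 and 202 CPM (at least 1487-fold). Of all called genes 1605 (19.9%) carried no product name, a share below the 25.7% of tested genes; the unnamed gene LOC119725510 had 67.4 and 62.2 CPM in treated libraries and no count in controls.

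The same start of treatment was also sampled at day 3, with controls of that day, and shares no library with the day 4 comparison. At day 3, 5633 genes (32.2%) were called, 2992 higher (17.1%) and 2641 lower (15.1%). Of those called higher at day 3, 2494 were called higher at day 4, which is 83.4% of the day 3 genes and 64.9% of the day 4 genes. Of those called lower at day 3, 2209 were called lower at day 4, 83.6% of the day 3 genes and 52.2% of the day 4 genes. Opposite calls were rare, with 60 genes higher at day 3 and lower at day 4, and 20 the reverse.

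The difference between the day 4 and the day 3 effect was then tested for each gene, and 1476 genes (8.43%) passed, 547 with a higher (3.12%) and 929 with a lower effect (5.3%) at day 4. The choice by that difference favours opposite steps, so the next counts are a description. In all, 626 of the 929 were up from day 3 to day 4 in controls and down in treated embryos, against 4160 of all 17519 tested genes. The median log2 step over the 929 was 0.84 in controls and -0.59 in treated libraries. Of the 547 genes 376 were down in controls and up in treated embryos, against 3358 of all tested genes, with median steps over the 547 of -0.64 and 0.34. When libraries were scaled by total counts only, the split was 832 higher and 757 lower in place of 547 and 929. The count depended on single libraries, at 951 and 880 without day 4 control replicate 1 or 2, 820 and 810 without day 3 control replicate 1 or 2, and 927 without the 0.8 mM library of day 3.

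The collagen IV chains (LOC119724226 and LOC119724229), described after their values were seen as were the other genes of this comparison outside the named rule, had a different effect at day 4. At day 3 alpha-2(IV) stood at 372 and 490 CPM in treated libraries against 447 and 393 in controls (0.04 ± 0.14), and alpha-5(IV) at 552 and 731 against 677 and 613 (-0.01 ± 0.13). Both groups overlapped then, while at day 4 the levels had parted, with the differences of effect at -1.74 ± 0.20 and -1.64 ± 0.19 (adjusted p = 8.6e-06 and 8.7e-06). Fibrillin-2-like LOC119744245 was already at 126 and 170 CPM against 1184 and 1091 at day 3, with a difference of effects of -4.16 ± 0.47 (adjusted p = 0.00034). Myosin heavy chain rose in controls from 261 and 242 CPM at day 3 to 857 and 1066, while in treated embryos it went from 14.9 and 14.7 to 5.17 and 4.00, a difference of -3.63 ± 0.38 (adjusted p = 3.8e-05). Of the muscle list 4 of 35 genes had a lower effect at day 4, of the neuron list 8 of 43, of gut 16 of 65 and of cilia 16 of 92, beside 5.3% of all tested genes.

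In nodal and BMP signalling 3 of 31 genes had a higher and 1 a lower effect at day 4, beside 3.12% and 5.3% of all tested genes. Nodal was at 110 and 81.6 CPM in treated libraries against 98.1 and 88.9 at day 3, with overlapping groups. By day 4 its level had dropped in both groups, and further in controls, to 29.6 and 21.9 (difference of effects 1.30 ± 0.29, adjusted p = 0.0066). Without day 4 control replicate 2 that difference was 1.09 and missed the threshold (adjusted p = 0.051). Univin was lower in treated embryos at day 3, 29.1 and 24.1 CPM against 52.4 and 47.1, and higher at day 4. The controls dropped to 9.34 and 10.6, while the treated level dropped less (1.93 ± 0.29, adjusted p = 0.00023). BMP4 had 62.4 and 81.2 CPM against 61.1 and 51.1 at day 3 and then dropped in treated embryos (-2.45 ± 0.40, adjusted p = 0.00075). DDX4 (LOC119728304) was higher on both days, 57.0 and 51.8 CPM against 30.0 and 29.9 at day 3, and the change of its effect missed the threshold (0.52 ± 0.22, adjusted p = 0.18). Of the 28 germline and RNA regulators 0 passed the test of the difference with edgeR, 6 had a higher and 2 a lower effect at an unadjusted p under 0.05, and DESeq2 called 1 higher and 0 lower.

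Caspase-7 increased in controls too, from 1.10 and 0.805 CPM at day 3 to 15.9 and 11.1, with a difference of effects of -2.15 ± 0.36 (adjusted p = 0.00063). Mitochondrial HSP75 was lower in treated embryos at day 3, 112 and 100 CPM against 146 and 126, and higher at day 4 (1.47 ± 0.18, adjusted p = 1.7e-05). Glutathione S-transferase theta-1 went from 42.3 and 43.5 CPM to 10.7 and 11.5 while its controls rose from 180 and 194 to 322 and 412 (-2.92 ± 0.23, adjusted p = 3.1e-08).

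**Figure D4:**
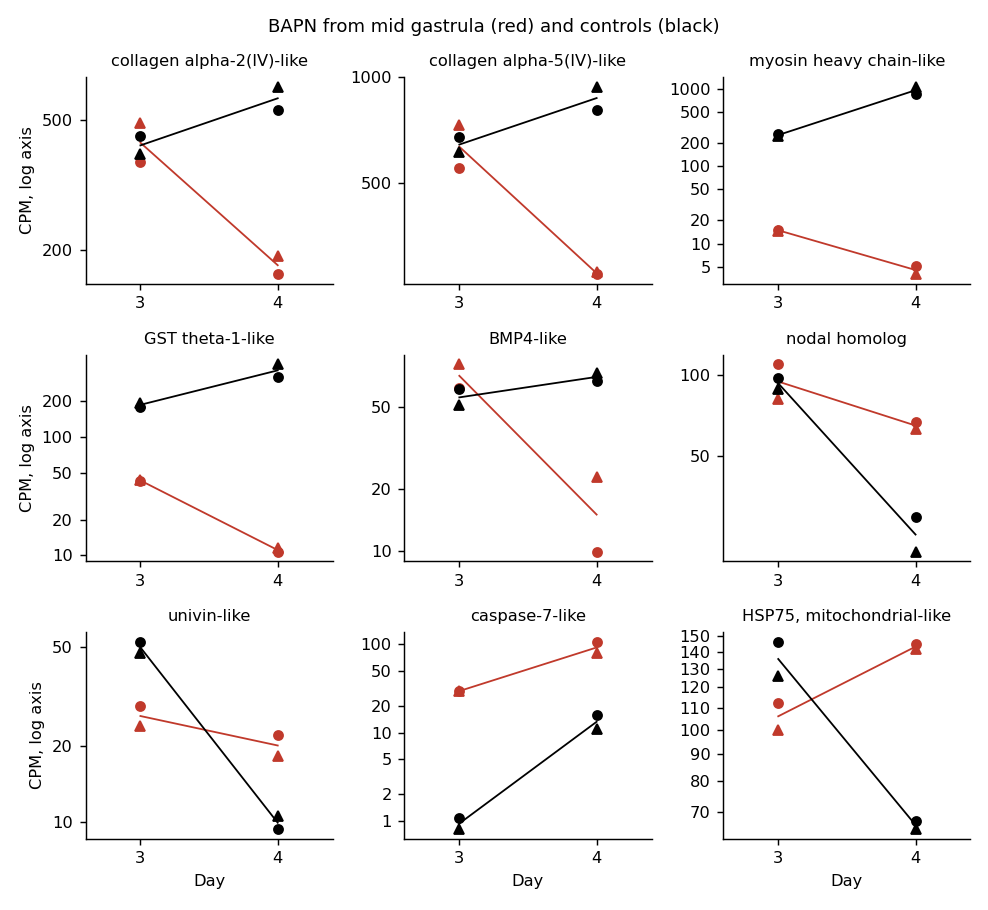
CPM on a log axis at day 3 and day 4 of 9 genes in embryos treated from mid gastrula (red) and controls (black); circles are 1.2 mM or control replicate 1, triangles 0.8 mM or control replicate 2, and lines join the geometric means of 2 libraries each. The collagen IV chains and nodal have overlapping groups at day 3 and separate groups at day 4, BMP4 goes from slightly above to below the controls, and univin and HSP75 cross.

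At day 4 the mid gastrula start was set against embryos kept in BAPN from hatched blastula, again 1 library at 1.2 mM and 1 at 0.8 mM. With edgeR, 2479 genes (14.2%) differed, 1374 higher (7.84%) and 1105 lower (6.31%) with the later start. When libraries were scaled by total counts only, the split was 1773 higher and 781 lower. Of the 2479 genes, 1479 had a mid gastrula level between those of controls and of the blastula start, and 417 lay beyond the blastula start. The other 583 had the 2 treated groups on opposite sides of the controls. The choice of genes by the difference between starts shapes this split. It was not counted over all tested genes, so it is a description only. The count fell to 1298 without the 1.2 mM library of the blastula start and to 1496 without the 0.8 mM library of the mid gastrula start. Both treated groups share the day 4 controls, so their values are given side by side.

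Nodal had 155 and 187 CPM with the blastula start, 67.1 and 62.9 with the mid gastrula start, and 29.6 and 21.9 in controls, a log2 difference between the starts of -1.40 ± 0.20 (adjusted p = 0.00014). FGF receptor 3 had 236 and 106 CPM, 24.2 and 22.6, and 3.52 and 6.001 in that order (LOC119735717, -2.87 ± 0.34, adjusted p = 4.1e-05). The stress-inducible factor ATF-3 had 841 and 235 CPM, 43.7 and 30.9, and 2.13 and 2.31 (LOC119740248, -3.85 ± 0.62, adjusted p = 0.0038). In these 3 genes the mid gastrula libraries lay between both other groups. Wnt-8b had 1277 and 897 CPM with the blastula start against 577 and 389 with the later one (-1.17 ± 0.22, adjusted p = 0.0023).

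Several genes that fell under both treatments fell less with the later start. Vinculin had 30.8 and 31.9 CPM with the blastula start, 57.6 and 59.5 with the mid gastrula start and 195 and 218 in controls (0.90 ± 0.14, adjusted p = 0.00013). The polyadenylation element-binding protein LOC119739653 had 18.5 and 17.3, 31.8 and 47.7, and 143 and 131 CPM (1.15 ± 0.19, adjusted p = 0.00024). Retinol dehydrogenase 8-like (LOC119738128) had no count with the blastula start and 2.99 and 3.17 CPM with the later one, at least 21.1-fold higher, against 29.8 and 35.8 in controls.

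Of the 417 genes beyond the blastula start, 2 are given here. FGF receptor 4 had 116 and 85.5 CPM against 25.7 and 36.1 with the blastula start and 13.02 and 9.002 in controls (1.70 ± 0.27, adjusted p = 0.00022). An ependymin-related protein had 0.544 and 0.333 CPM against 4.04 and 4.42 with the blastula start and 13.02 and 14.8 in controls (LOC119722648, -3.25 ± 0.48, adjusted p = 0.00011), a call lost in a fit of the contrast's libraries alone (adjusted p = 0.068).

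Cytosolic ribosomal proteins differed between the starts of treatment, with 56 of 73 lower in the mid gastrula start (median -0.58), beside 6.31% of all genes. The count was 45 with scaling by total counts and 60 with DESeq2. DNA replication genes had 21 of 56 lower (median -0.39). In both lists 0 genes were higher with the later start by edgeR, at an unadjusted p under 0.05 and by DESeq2. Motile cilia had 16 of 92 higher and 3 lower (median 0.20), beside 7.84% of all genes higher. For muscle 2 of 35 genes were higher and 1 lower (median 0.05), and for the DDX4 genes the difference between starts missed the threshold (-0.07 for LOC119728304 and -0.17 for LOC119742591, adjusted p = 0.84 and 0.58).

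**Figure D5:**
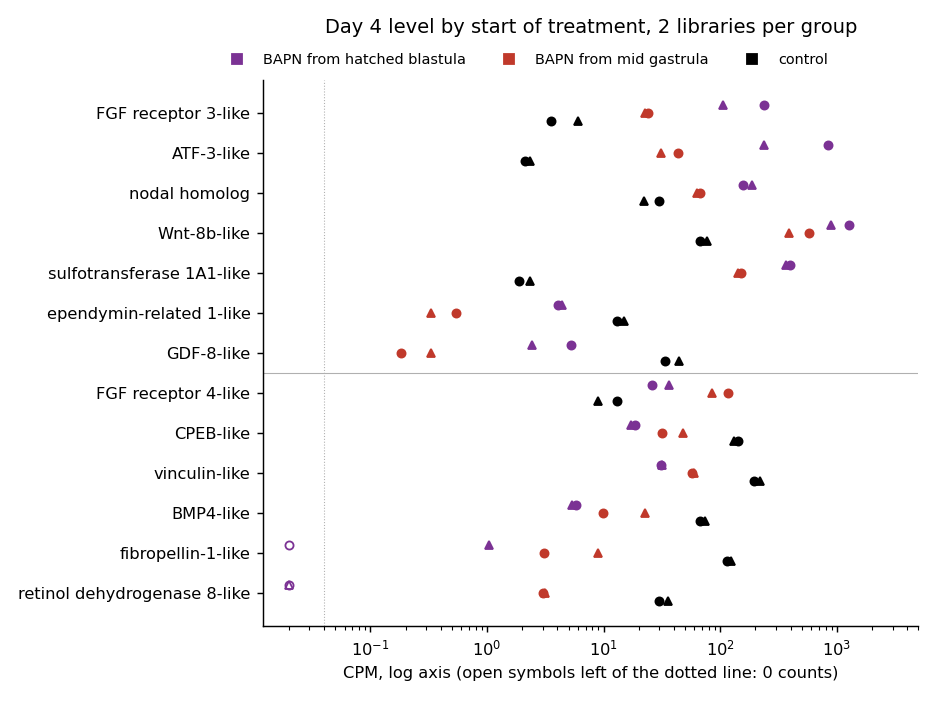
CPM on a log axis at day 4 of 13 genes by start of treatment (purple, BAPN from hatched blastula; red, BAPN from mid gastrula; black, controls; circles, 1.2 mM or control replicate 1; triangles, 0.8 mM or control replicate 2; open symbols, 0 counts). Genes above the grey line were lower with the later start and those below it higher. GDF-8 had 6 counts with the mid gastrula start (log2 difference -3.83 ± 1.04). Its call was lost in an edgeR fit of the contrast's libraries alone (adjusted p = 0.063). It was also lost without either mid gastrula library (-3.48 and -4.32) or the 1.2 mM blastula library (-3.22). Nodal lies in the order controls, mid gastrula, blastula, and FGF receptor 4 is highest with the mid gastrula start.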

How the data were processed

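The deposited table holds unnormalized counts of reads, as whole numbers, for each gene in 16 libraries of wild-type embryos; per the labels, polyA RNA of pooled embryos was sequenced paired-end and stranded. Aligner, counter, strand setting and build: not given in the sources used here, so overlapping and antisense neighbours cannot be told apart. Gene starts and ends equal those of Pmin_3.0, whose product names are used; names ending in "-like" were transferred by similarity.

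Genes were filtered with filterByExpr (minimum count 10, minimum total 15), which removed 10299 of 27818, 4125 of them without a count. edgeR 4.0.16 quasi-likelihood fits (R 4.3.3, limma 3.58.1) used all 16 libraries in 8 groups with 8 residual degrees of freedom and TMM scaling, with Benjamini-Hochberg adjustment over all tested genes and a threshold of 0.05. The test against 2-fold was glmTreat. The difference between the day 4 and day 3 effects was an interaction contrast. CPM values use TMM effective library sizes. The value after ± is an approximate standard error, the absolute log2 change divided by the square root of the quasi-likelihood F statistic. It rests on the spread in the model of all 16 libraries, not on that of the 4 libraries alone. Groups without counts were given a floor of 3 counts over the group; ratios carry 95% counting intervals. The script was tested on simulated data in which few genes changed, so that run does not cover changes as widespread as those here. DESeq2 1.42.0, other scalings, no filter, a block by dose series, fewer libraries and omission of each library were alternatives. Tables and plots used Python 3.11.15 with pandas 2.3.3, scipy 1.17.1 and matplotlib 3.10.9.

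Named genes included the 10 called genes with the highest and the 10 with the lowest log2 change, all with groups that did not overlap. Up to 3 called members of each of 24 lists in each direction were added. The 6 largest differences in each direction in the other 2 comparisons were added too. All of these had a product name and an average level over the 4 libraries of 1 log2 CPM or more. Every tested nanos, DDX4 and lysyl oxidase gene was named whatever its level, call or overlap. The text describes a selection of them. Members and lists were chosen with earlier results of these data known.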

Additional observations from a re-analysis of the deposited data

Results flagged for a closer look

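With edgeR the day 4 and day 3 effects of BAPN from mid gastrula differed for 1476 genes, and the start of treatment made a difference at day 4 for 2479 genes. Both are tests of the difference itself.

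Among named genes the difference of the effects (day 4 minus day 3, log2) was -1.74 for collagen alpha-2(IV) (LOC119724226), -1.64 for collagen alpha-5(IV) (LOC119724229), -2.45 for BMP4 (LOC119732060), -3.63 for myosin heavy chain (LOC119735028), -2.92 for glutathione S-transferase theta-1 (LOC119732217) and -2.15 for caspase-7 (LOC119735747). It was 1.47 for HSP75 (LOC119727480), 1.30 for nodal (LOC119731756), 1.93 for univin (LOC119741587), 8.63 for a putative amidohydrolase YtcJ (LOC119722515), 4.13 for an alpha-1A adrenergic receptor-like gene (LOC119741576), 3.37 for tetratricopeptide repeat protein 22-like (LOC119746314), 2.98 for a TPR and ankyrin repeat protein (LOC119722696) and 2.90 for a melatonin receptor type 1A-like gene (LOC119744344).

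Some of these calls depended on single libraries. That of LOC119722515 was lost with the block by dose series (adjusted p = 0.054, edgeR) and without any 1 of the 8 libraries (0.058 to 0.21). That of LOC119741576 was lost without the 1.2 mM library or control replicate 1 of day 4, or the 0.8 mM library or control replicate 1 of day 3 (0.08 to 0.14). That of LOC119722696 was lost without day 4 control replicate 2, or the 1.2 mM library or control replicate 1 of day 3 (0.057 to 0.11). LOC119744344 lost its call without the 1.2 mM library or control replicate 1 of day 4 or any 1 of the day 3 libraries (0.05 to 0.17), and nodal (LOC119731756) without day 4 control replicate 2 (0.051).

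For genes with 3 or fewer counts in a group only the adjusted p of the difference is given. It was 0.0015 for the phosphate transporter 2-like gene (LOC119724507), 0.0012 for myelin P2-like (LOC119730836), 1.5e-05 for MAM and LDL-receptor class A domain-containing protein 2-like (LOC119718776), 0.0019 for neuroligin-3-like (LOC119723541), 0.00045 for pancreatic lipase-related protein 2-like (LOC119740278) and 0.00024 for adhesion G protein-coupled receptor E1-like (LOC119745559), all lower at day 4. For late histone H2B.L4-like (LOC119721314), higher at day 4, it was 0.0052. The call of LOC119724507 was lost without the 1.2 mM library of day 3 (adjusted p = 0.093, edgeR) and that of LOC119721314 without day 3 control replicate 1 (0.054).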

How the results depend on the processing

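The count of genes called against day 4 controls ranged from 6235 to 8354 over the alternatives, and beyond 2-fold from 2593 to 3719. The count for the change from day 3 was 2597 with only the contrast's libraries, 1886 with DESeq2, 1878 without a filter and 810 to 1503 when 1 library was left out. The count between starts was 950 with only the contrast's libraries and 1298 to 3083 when 1 library was left out. The cause was not tested. A replicate block by dose series gave 8012, 3390, 1540 and 2526 genes in these 4 counts; the dose numbers did not pair the libraries (correlation of deviations between the day 4 groups -0.003). Scaling by total counts moved the median log2 change of all genes from -0.08 to -0.18, and DESeq2's size factors moved it to -0.14. Of 189 gene results, 159 kept their call in every alternative and 29 lost it in at least 1. The lysyl oxidase gene LOC119738367, not called, changed sign to -1.62 without the 0.8 mM library and -0.06 without control replicate 1, and was 1.28 without control replicate 2. Of 48 list counts 34 stayed within 1.5 times. The matrix protein median changed sign to 0.12 and 0.07 without control replicate 1 or 2, the mitochondrial median to 0.01 without control replicate 2, and that of the lysyl oxidase list to -0.03 without the 1.2 mM library. Depth limits genes of a few CPM, and 10299 genes were not tested.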
